A study of Caenorhabditis elegans with 6 samples.

Results

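The propionate shunt of Caenorhabditis elegans, the nuclear receptors that switch it on and the vitamin B12-dependent route beside it were followed as 10 named genes in whole-animal RNA-seq of day 5 adults. They were chosen by symbol: the 5 shunt enzymes (acdh-1, ech-6, hach-1, hphd-1 and alh-8), 2 nuclear receptors (nhr-10 and nhr-68) and 3 genes of the canonical route (pcca-1, pccb-1 and mmcm-1). All 10 were found among the 46748 genes of the count table, and all 10 passed the filter on low counts that left 13494 genes for testing. The choice was made in part for how these genes differ between the labels of these same libraries, so their differences are given as a description. Every library came from wildtype N2 hermaphrodites with the tissue given as all, aged 5 days and kept on the RNAi treatment for 5 days from the L4 larval stage. By their perturbation label, 3 libraries came from animals under RNAi against T25B9.1, a predicted glycine C-acetyltransferase of threonine breakdown. The label of the other 3 is L4440, the plasmid without an insert that serves as the control in feeding RNAi. The bacterial strain, its vitamin B12 content and the number of animals per library are not given in the sources used here.

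Propionyl-CoA arises from the breakdown of branched-chain amino acids, methionine, threonine and odd-chain fatty acids, and free propionate is toxic. In the canonical route, propionyl-CoA carboxylase and then methylmalonyl-CoA mutase turn it into succinyl-CoA, and the mutase needs vitamin B12 as its cofactor. When vitamin B12 is short and propionate builds up, worms instead transcribe the shunt, a beta-oxidation-like path that ends in acetyl-CoA, and NHR-10 and NHR-68 are known as the receptors required for this induction. A reporter of acdh-1, the first gene of the shunt, is widely used in worms as a sensor of dietary vitamin B12.

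The targeted gene was measured first, because it checks the labels. T25B9.1 (WBGene00012007) had 219, 317 and 430 counts in the libraries labelled T25B9.1, against 90, 92 and 132 counts in the libraries labelled L4440. It was therefore higher, not lower, where its RNAi was labelled: the log2 fold change came to 1.73 with an SE of 0.245 (adjusted p = 0.00483 by edgeR, higher in 3 of 3 libraries). An exchange of all labels, reads of the double-stranded RNA itself and a true rise cannot be told apart from counts per gene, so each group is named by its label, and "lower" or "higher" says where the T25B9.1 label stands against the L4440 label. In the annotation, T25B9.1 shares 24 exon bases with T25B9.3 on the other strand. Totals ran from 25480225 to 38621940 counts per library. Of the 13494 genes tested, 309 were called lower and 152 higher at an adjusted p of 0.05. Since no label states that libraries came from separate cultures, errors and p-values cover the spread among these libraries, and that spread may be technical.

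All 5 shunt genes were lower under the T25B9.1 label, and by very different amounts. The difference was 5.74-fold for acdh-1 and 3.26-fold for hphd-1, but 1.65-fold for hach-1, 1.52-fold for ech-6 and 1.34-fold for alh-8. The nuclear receptor nhr-68 was 1.76-fold lower, while for nhr-10 and the 3 genes of the canonical route the libraries of the 2 labels overlapped. By edgeR 6 of the 10 genes were called lower and none higher, beside 2.29% called lower and 1.13% called higher among all genes tested. DESeq2 also gave 6 and 0, beside 2.97% and 1.39% of all genes, and limma-voom 6 and 0, beside 2.16% and 1.04%. At an unadjusted p of 0.05 the counts were again 6 and 0, beside 7.29% and 5.79%. On the deposited RPKM values (reads scaled by the authors to gene length and library total) 2 of the 10, acdh-1 and hphd-1, were called lower, beside 0.282%. For the same 6 genes the libraries of the 2 labels did not overlap, which held in the same direction for 9.6% of all tested genes. Since this contrast helped to choose the genes, nothing is read from these shares. The median log2 fold change was -0.72 over the 5 shunt genes and 0.02 over the 3 canonical genes, against 0.008 over all tested genes. In RNA from whole animals, fewer cells that transcribe a gene and less transcript per cell cannot be told apart.

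**Figure D1:**
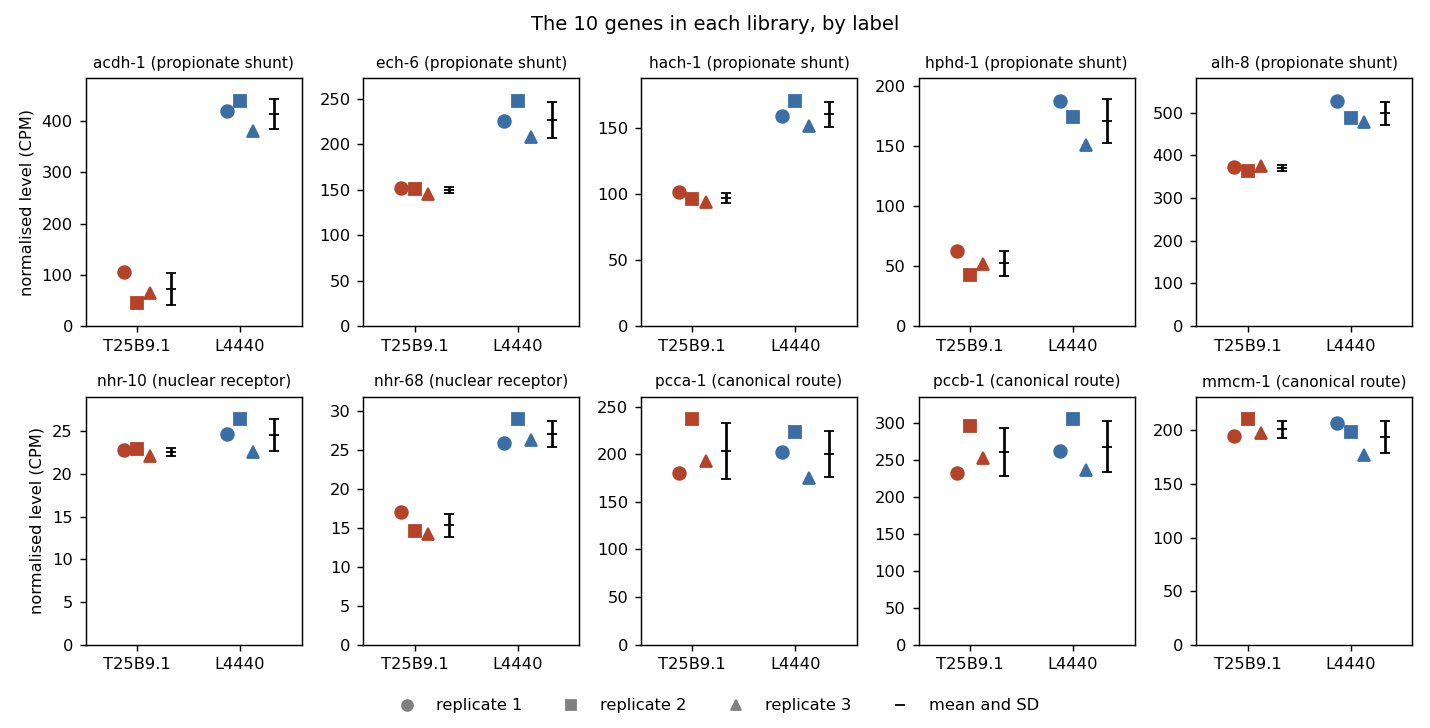
Normalised level (CPM) of each of the 10 genes in each library, with the libraries labelled T25B9.1 on the left and those labelled L4440 on the right of each panel; symbols mark the replicate and the black bar gives mean and SD of 3 libraries. The 5 shunt genes and nhr-68 show separate groups, and nhr-10, pcca-1, pccb-1 and mmcm-1 overlap.

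The first enzyme, ACDH-1, is an acyl-CoA dehydrogenase that turns propionyl-CoA into acrylyl-CoA. Its gene (WBGene00016943, chromosome I at 6497436 to 6499560 in build WBcel235, plus strand) had 3462, 1125 and 2285 counts in the libraries labelled T25B9.1, against 14568, 10987 and 15337 counts in the libraries labelled L4440. Scaled to the library's normalised total (CPM, counts for each 1e+06 scaled counts), these were 106.5, 45.1 and 64.3 CPM under the T25B9.1 label and 419, 440 and 382 CPM under the L4440 label. The highest library labelled T25B9.1 thus stood at 25.7% of the L4440 mean and the lowest at 10.9%. The log2 fold change was -2.52 (SE 0.310). Within the libraries labelled T25B9.1 the level varied 2.36-fold, with a coefficient of variation of 43.6%, against 7.14% within those labelled L4440. By edgeR the gene was not called without L4440 replicate 1, 2 or 3 (adjusted p = 0.0750, 0.0815 and 0.0794) or with no filter on low counts (0.0575), at log2 fold changes of -2.48 to -2.57. Over all alternatives the log2 fold change of acdh-1 lay between -2.92 and -2.29.

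ECH-6, an enoyl-CoA hydratase, adds water to acrylyl-CoA to give 3-hydroxypropionyl-CoA. The gene ech-6 (WBGene00001155, chromosome III at 9751552 to 9752883, minus strand) was at 151, 151 and 145 CPM in the libraries labelled T25B9.1 and at 225, 248 and 208 CPM in those labelled L4440. Its 3 libraries labelled T25B9.1 lay within 1.04-fold of each other, and all were below the lowest library labelled L4440. The log2 fold change was -0.60 (SE 0.0753).

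HACH-1 is the hydrolase that frees 3-hydroxypropionate from coenzyme A. Its gene (WBGene00017301, chromosome III at 5555450 to 5557318, plus strand) was at 101, 96.2 and 94.0 CPM under the T25B9.1 label and at 159, 170 and 151 CPM under the L4440 label. The groups were tight and separate, with coefficients of variation of 3.82% and 5.99% and a log2 fold change of -0.72 (SE 0.0662).

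HPHD-1 oxidises 3-hydroxypropionate to malonic semialdehyde. Its gene (WBGene00012608, chromosome II at 12994354 to 12996571, minus strand) had 2039, 1051 and 1850 counts in the libraries labelled T25B9.1, against 6513, 4350 and 6061 in those labelled L4440. The levels were 62.7, 42.2 and 52.02 CPM under the T25B9.1 label and 188, 174 and 151 CPM under the L4440 label. Each library labelled T25B9.1 stood between 24.7% and 36.7% of the L4440 mean. The log2 fold change of hphd-1 was -1.70 (SE 0.138), and among the shunt genes it alone was called under each of the 14 alternatives tried, including the deposited RPKM values.

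ALH-8, an aldehyde dehydrogenase, closes the path by making acetyl-CoA from malonic semialdehyde, and as methylmalonate-semialdehyde dehydrogenase it also serves valine breakdown. The gene alh-8 (WBGene00000114, chromosome II at 11729055 to 11731198, plus strand) was at 372, 363 and 376 CPM in the libraries labelled T25B9.1 and at 527, 488 and 479 CPM in those labelled L4440. It had the smallest difference of the 5, at a log2 fold change of -0.43 (SE 0.0758), and its call was not made without T25B9.1 replicate 1 (edgeR adjusted p = 0.0668, log2 fold change -0.43). In the annotation, 34 of its 1771 exon bases overlap F13D12.8 on the other strand, which was at 0.16 (SE 0.182) itself, and reads of this overlap cannot be assigned.

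Along the order of the enzymes the sizes did not follow each other. The acdh-1 and hphd-1 steps had the large differences, and the ech-6, hach-1 and alh-8 steps had small ones. The same pair, acdh-1 and hphd-1, also varied most between the libraries labelled T25B9.1, with coefficients of variation of 43.6% and 19.6%, against 1.81% to 3.82% for ech-6, hach-1 and alh-8 in the same libraries. Both had their highest value in T25B9.1 replicate 1 and their lowest in T25B9.1 replicate 2. The targeted gene itself was at 6.74, 12.7 and 12.1 CPM in these libraries, so replicate 1, with the most acdh-1 and hphd-1, had the least T25B9.1. With 3 libraries this order is a description only.

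The receptors NHR-10 and NHR-68 belong to the large worm family of nuclear hormone receptors related to vertebrate HNF4. The gene nhr-10 (WBGene00003609, chromosome III at 7112295 to 7115438, minus strand) was at 22.8, 22.9 and 22.1 CPM in the libraries labelled T25B9.1 and at 24.7, 26.4 and 22.6 CPM in those labelled L4440. These ranges overlapped, with a log2 fold change of -0.12 (SE 0.0819), and no tool called the gene. The gene nhr-68 (WBGene00003658, chromosome V at 11573440 to 11575709, plus strand) is itself known to be induced when the shunt is. It had 554, 364 and 506 counts under the T25B9.1 label, against 899, 722 and 1053 counts under the L4440 label. Its levels were 17.0, 14.6 and 14.2 CPM in the libraries labelled T25B9.1 and 25.9, 28.9 and 26.2 CPM in those labelled L4440, with no overlap and a log2 fold change of -0.82 (SE 0.0942). Per length, nhr-10 had 1.28 ± 0.110 times the level of nhr-68 in the libraries labelled T25B9.1 and 0.784 ± 0.0406 times in those labelled L4440 (SD, n = 3 each).

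In the canonical route the labels did not separate. Propionyl-CoA carboxylase has an alpha subunit, which carries biotin, and a beta subunit. The alpha subunit gene pcca-1 (WBGene00017864, chromosome X at 7657542 to 7660986, minus strand) was at 181, 237 and 193 CPM in the libraries labelled T25B9.1 and at 202, 224 and 176 CPM in those labelled L4440. The beta subunit gene pccb-1 (WBGene00018701, chromosome X at 3089549 to 3092437, plus strand) was at 232, 296 and 253 CPM under the T25B9.1 label and at 262, 305 and 237 CPM under the L4440 label. The mutase gene mmcm-1 (WBGene00014202, chromosome III at 3903185 to 3907687, minus strand) was at 195, 210 and 198 CPM in the libraries labelled T25B9.1, against 207, 198 and 177 CPM in those labelled L4440. In each of the 3 genes the groups overlapped, and the log2 fold changes were 0.02 (SE 0.115) for pcca-1, -0.04 (SE 0.112) for pccb-1 and 0.05 (SE 0.0748) for mmcm-1. Leaving out single libraries turned each of these signs, over ranges of -0.11 to 0.10, -0.15 to 0.05 and -0.0097 to 0.08. The carboxylase subunits kept a steady ratio, with pccb-1 at 1.68 ± 0.0368 times the per-length level of pcca-1 in the libraries labelled T25B9.1 and 1.76 ± 0.0452 times in those labelled L4440 (SD, n = 3 each). Both subunit genes were highest in replicate 2 of either label. Of the exon bases of pccb-1, 43 overlap wrt-2 on the other strand.

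**Figure D2:**
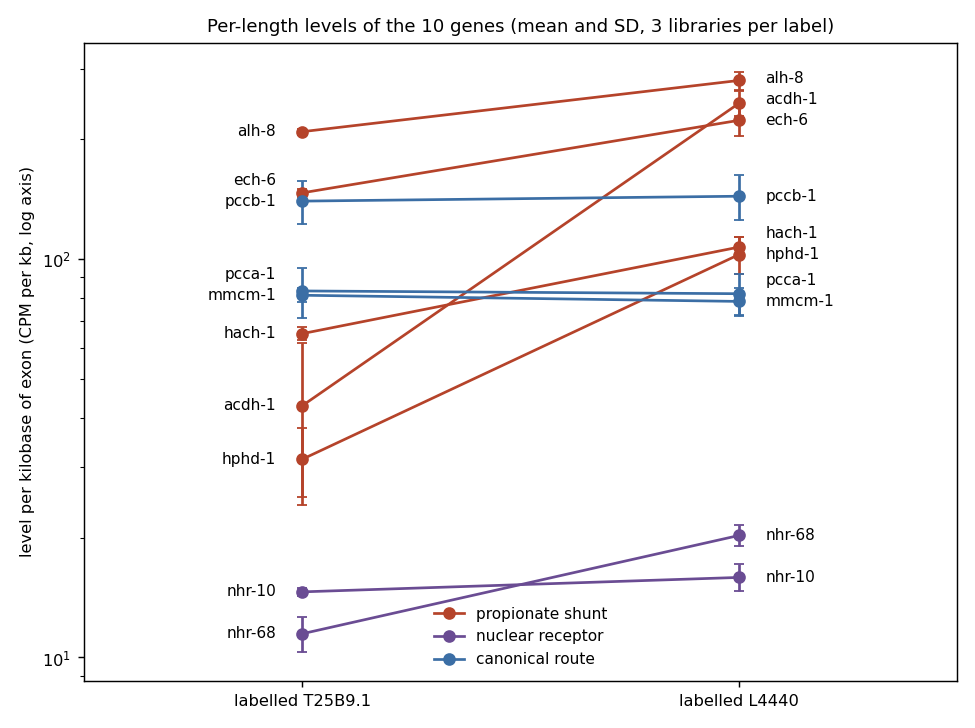
Level per kilobase of exon (CPM per kb, log axis) of each of the 10 genes, with the libraries labelled T25B9.1 on the left and those labelled L4440 on the right; points are means and bars SD of 3 libraries. The line of acdh-1 lies at 42.9 on the left, the seventh place, and at 246 on the right, the second place, while the canonical genes lie level.

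Levels of different genes were set side by side only per length, as CPM per kilobase of merged exons. In the libraries labelled T25B9.1 the order was alh-8 (209 ± 3.79), ech-6 (147 ± 3.23), pccb-1 (139.96 ± 17.6), pcca-1 (83.3 ± 12.001), mmcm-1 (81.2 ± 3.29), hach-1 (65.0 ± 2.49), acdh-1 (42.9 ± 18.7), hphd-1 (31.5 ± 6.18), nhr-10 (14.6 ± 0.306) and nhr-68 (11.5 ± 1.14; SD, n = 3 for each). In that order the ranges of ech-6 and pccb-1, of pcca-1 and mmcm-1, of hach-1 and acdh-1, and of acdh-1 and hphd-1 overlapped, and the other neighbours were separate. In the libraries labelled L4440, alh-8 (281 ± 14.6) was followed by acdh-1 (246 ± 17.6) and ech-6 (223 ± 19.6), then by pccb-1 (144 ± 18.6), hach-1 (107 ± 6.43), hphd-1 (103 ± 11.2), pcca-1 (81.9 ± 9.85), mmcm-1 (78.4 ± 6.09), nhr-68 (20.3 ± 1.24) and nhr-10 (15.9 ± 1.24; SD, n = 3 for each). There the overlaps were between acdh-1 and ech-6, hach-1 and hphd-1, hphd-1 and pcca-1, and pcca-1 and mmcm-1. Among all tested genes, the mean per-length level of acdh-1 stood at percentile 72.1 in the libraries labelled T25B9.1 and at percentile 96.7 in those labelled L4440. For hphd-1 these percentiles were 66.4 and 89.0. The receptors were mid-range in both, at percentiles 52.5 to 59.7.

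Summed per length, the 5 shunt genes reached 528, 470.0 and 488 CPM per kb in the libraries labelled T25B9.1 and 989, 1000 and 894 CPM per kb in those labelled L4440. The 3 canonical genes summed to 304 ± 32.8 under the T25B9.1 label and 304 ± 32.5 under the L4440 label (SD, n = 3 each). The ratio of the shunt sum to the canonical sum was 1.90, 1.38 and 1.66 in the libraries labelled T25B9.1 and 3.22, 2.98 and 3.31 in those labelled L4440, with no overlap. The make-up of the shunt's transcripts differed as well. The share of acdh-1 in the shunt sum was 8.53% ± 3.20 in the libraries labelled T25B9.1 and 25.6% ± 0.501 in those labelled L4440, and that of alh-8 was 42.3% ± 2.18 and 29.3% ± 1.52 (SD, n = 3 each). Per length, acdh-1 stood at 0.540 ± 0.294 times the level of pcca-1 in the libraries labelled T25B9.1 and at 3.02 ± 0.151 times in those labelled L4440. Between the adjacent steps ech-6 and hach-1 the ratio moved little, with hach-1 at 0.443 ± 0.0107 times ech-6 under the T25B9.1 label and 0.481 ± 0.0136 times under the L4440 label. The labels still did not overlap in it, at 0.434 to 0.455 and 0.468 to 0.495. These sums and ratios come from the same values as the fold changes and carry no test.

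The order of libraries inside each label group, which the contrast between labels does not use, split the genes by role in the libraries labelled T25B9.1. There replicate 1 was the highest library for 4 of the 5 shunt genes and the lowest for 3 of the 3 canonical genes. Replicate 2 was the lowest for 3 of the 5 shunt genes and the highest for 3 of the 3 canonical genes. This library also stood apart over all genes. Its counts gave a chi-square per degree of freedom of 36.9 against replicate 1 and 35.65 against replicate 3. Between replicates 1 and 3 the value was 5.71. The listed markers of germline and oocytes were highest in replicate 2 as well. Whether the split is particular to this pathway was not tested. For ech-6 and alh-8, however, the 3 values differ by at most 1.04-fold, so their order is weak. In the libraries labelled L4440 no such split was seen, since replicate 3 was the lowest for 5 of the 5 shunt genes and for 3 of the 3 canonical genes, and for 9 of the 10 genes in all.

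Other genes of the pathway were taken from lists of known function. These lists were drawn up with earlier results of these data known, so their counts and shares are given as a description. Of the 8 listed genes of the canonical route and of vitamin B12 handling, all tested, 1 was called lower and none higher (1 and 0 by DESeq2, by limma-voom and at an unadjusted p of 0.05), with a median log2 fold change of -0.01. Among all tested genes, 2.29% were lower by edgeR, 2.97% by DESeq2, 2.16% by limma-voom and 7.29% at an unadjusted p of 0.05. The gene called was pmp-5, an ABC transporter related to human ABCD4, which moves cobalamin out of lysosomes. It was at 15.0, 11.03 and 12.2 CPM in the libraries labelled T25B9.1 and at 28.5, 29.5 and 25.5 CPM in those labelled L4440, so that its log2 fold change was -1.12 with an SE of 0.115 (adjusted p = 0.000423 by edgeR, lower in 3 of 3 libraries). Like acdh-1 and hphd-1, it was highest in replicate 1 and lowest in replicate 2 of the T25B9.1 label. The other 7, with log2 fold changes of -0.11 to 0.14, were not called. They include mce-1, the gene of the epimerase that acts between carboxylase and mutase, mmaa-1 and mmab-1, which serve the mutase's cofactor, and metr-1, the gene of methionine synthase, the other vitamin B12-dependent enzyme of the worm.

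Genes of pathways that can feed propionyl-CoA came next. The list covers whole pathways, so not each of its genes leads to propionyl-CoA. Of 16 tested genes of branched-chain amino acid breakdown, transsulfuration and peroxisomal oxidation, edgeR called none in either direction, beside 2.29% of all tested genes lower. DESeq2 called 1 lower, beside 2.97%, and limma-voom none, beside 2.16%. The median log2 fold change of the 16 was -0.07. At an unadjusted p of 0.05, 2 were lower and none higher, beside 7.29% and 5.79% of all tested genes. These 2 were cth-2, a cystathionine gamma-lyase gene (-0.38, SE 0.0957, edgeR adjusted p = 0.0657), and bcat-1, the branched-chain aminotransferase gene (-0.14, SE 0.0599, edgeR adjusted p = 0.318). For cth-2 the levels were 142.5, 142.01 and 169 CPM in the libraries labelled T25B9.1 and 179, 190 and 221 CPM in those labelled L4440, without overlap. It passed by DESeq2 (adjusted p = 0.0138), with no filter on low counts (edgeR adjusted p = 0.000515) and without T25B9.1 replicate 3 or L4440 replicate 1 (0.0350 and 0.0383), and its adjusted p reached 0.977 on the deposited RPKM values.

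Among 8 other regulators of intestinal metabolism the median was -0.07. At an unadjusted p of 0.05, 2 were lower and none higher, beside 7.29% and 5.79% of all tested genes. By edgeR, DESeq2 and limma-voom, 1 was called lower and none higher, beside 2.29%, 2.97% and 2.16% of all tested genes called lower. It was nhr-114, a nuclear receptor known for the worm's response to low vitamin B12 through methionine metabolism, at 9.26, 9.43 and 8.27 CPM in the libraries labelled T25B9.1 and at 21.1, 16.3 and 14.2 CPM in those labelled L4440 (log2 fold change -0.94, SE 0.143, edgeR adjusted p = 0.00456, lower in 3 of 3 libraries). The other 7 had log2 fold changes of -0.23 to 0.15 and were not called. They include the genes of the Mediator subunit MDT-15 and of the SREBP homologue SBP-1, both known activators of metabolic genes in the worm intestine.

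The relatives of the shunt enzymes were counted next. Of 19 tested acyl-CoA dehydrogenase and enoyl-CoA hydratase genes besides acdh-1 and ech-6, edgeR called 1 lower and none higher, with a median of -0.05. The counts were 2 and 0 by DESeq2, 1 and 0 by limma-voom, and 3 and 0 at an unadjusted p of 0.05. Among all tested genes the shares lower were 2.29% by edgeR, 2.97% by DESeq2, 2.16% by limma-voom and 7.29% at that unadjusted p. The gene called by edgeR was ech-7, at 34.8, 29.5 and 31.7 CPM in the libraries labelled T25B9.1 and at 46.8, 61.1 and 53.5 CPM in those labelled L4440 (log2 fold change -0.75, SE 0.101, edgeR adjusted p = 0.00224, lower in 3 of 3 libraries). The close relative acdh-2, chosen after its values were seen, had 11, 3 and 8 counts under the T25B9.1 label, against 38, 87 and 37 counts under the L4440 label. Its log2 fold change was -2.85 (SE 0.677), larger than that of acdh-1 on few counts, and it did not pass (edgeR adjusted p = 0.0708). It passed by DESeq2 (adjusted p = 7.36e-06), on the deposited RPKM values (0.000918) and by edgeR without L4440 replicate 2 or 3 (0.0134 and 0.0467), and its adjusted p reached 0.387 with no filter on low counts. Without L4440 replicate 2 its log2 fold change was -2.08. Its exons overlap ins-13 on the same strand by 87 bases. Of 11 tested aldehyde dehydrogenase genes besides alh-8, edgeR and limma-voom called none, beside 2.29% and 2.16% of all tested genes lower. DESeq2 called 1 lower, beside 2.97%. At an unadjusted p of 0.05, 3 were lower and 1 higher, beside 7.29% and 5.79% of all tested genes. The smallest p-values were those of alh-9 (-0.25, SE 0.0614, edgeR adjusted p = 0.0584, and 0.0333 by DESeq2) and alh-13 (-0.34, SE 0.102, edgeR adjusted p = 0.127).

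**Figure D3:**
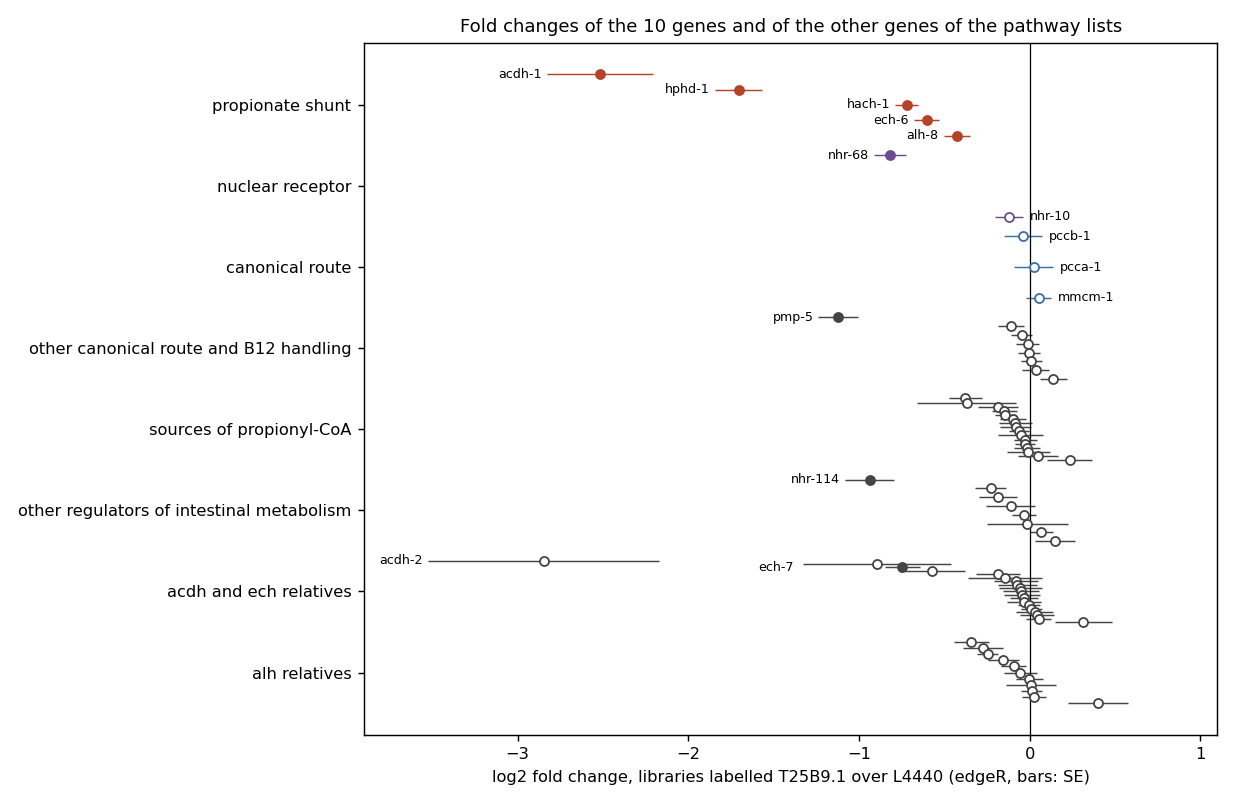
Log2 fold change, libraries labelled T25B9.1 over those labelled L4440, of the 10 genes by role and of the tested genes of the 5 pathway lists, with bars of 1 SE; filled points passed an edgeR adjusted p of 0.05. Apart from the shunt genes and nhr-68, the filled points are pmp-5, nhr-114 and ech-7, and the open point far to the left is acdh-2, on few counts.

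Genes with the most similar profile over the 6 libraries were named by a fixed rule, as the smallest root mean square difference of log2 CPM after each gene's own mean was taken off, among 10286 other genes with a mean of at least 50 counts. Nearest to acdh-1 were folt-2, a folate transporter gene (0.108), C35A5.3 (0.326) and acs-2, an acyl-CoA synthetase gene (0.370). The profile of folt-2 was closer than that of any of the other 9 genes described here, of which hphd-1 was nearest to acdh-1 (0.490). The levels of folt-2 were 19.9, 10.6 and 14.1 CPM in the libraries labelled T25B9.1 and 90.4, 98.7 and 77.4 CPM in those labelled L4440, in the same order within each label as those of acdh-1. Nearest to hphd-1 were K09C4.5 and T05E12.6 (0.105 each) and ugt-62, a UDP-glucuronosyltransferase gene (0.141). For nhr-68 they were Y37H2A.14 (0.0526), C49G7.7 (0.0603) and the nuclear receptor gene nhr-101 (0.0648), and hach-1 (0.0756) and ech-6 (0.136) were the closest of the other 9 genes. All of these libraries share the contrast between labels, so likeness here is mostly likeness of the fold change.

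**Figure D4:**
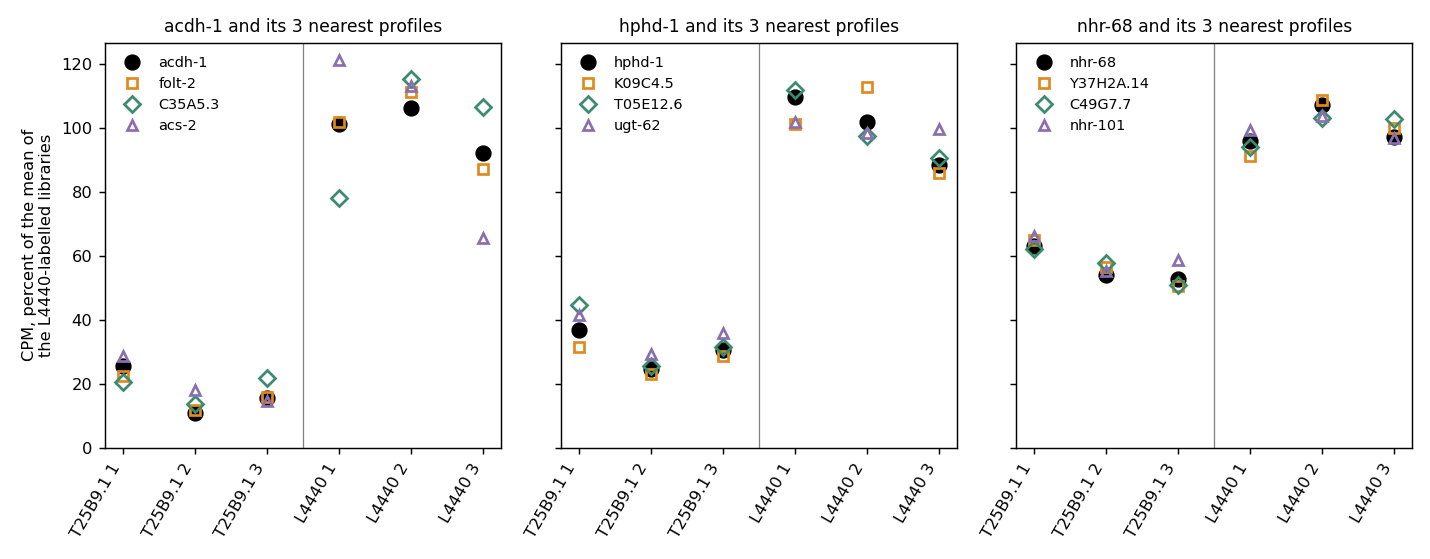
CPM in each library as a percent of the mean of the L4440-labelled libraries, for acdh-1, hphd-1 and nhr-68 (black) and the 3 genes nearest to each (open symbols), with libraries labelled T25B9.1 left of the line and those labelled L4440 right of it. folt-2 follows acdh-1 in each library, while C35A5.3 and acs-2 depart from it under both labels.

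Position along the chromosome was not used to choose the genes, and the nearest tested protein-coding gene on either side of each was examined. Of these 20 neighbours, 3 were called lower and none higher, beside 2.29% and 1.13% of all tested genes. The gene C55B7.3 (WBGene00016942, chromosome I at 6499982 to 6501410, plus strand) begins 421 bases after the end of acdh-1 on the same strand. It had 5, 5 and 5 counts in the libraries labelled T25B9.1, against 43, 28 and 31 counts in those labelled L4440, which gave -2.64 on the log2 scale with an SE of 0.335 (adjusted p = 0.00147 by edgeR, lower in 3 of 3 libraries), close to acdh-1. It was called under all alternatives that kept it in the test, and a mean of at least 50 counts left it out. Its counts are few beside those of acdh-1, and whether they are reads that run on from acdh-1 was not tested. On the other side of acdh-1, uri-1, which ends 1326 bases before its start on the same strand, stood at -0.0032 (SE 0.0656) on the log2 scale.

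The second such neighbour was nhr-101 (WBGene00003691, chromosome V at 11570476 to 11572549, plus strand), which ends 890 bases before the start of nhr-68 and was also among the genes of nearest profile. It had 155, 99 and 150 counts in the libraries labelled T25B9.1, against 248, 186 and 280 counts in those labelled L4440. It stood at -0.73 (SE 0.120, adjusted p = 0.00672 by edgeR, lower in 3 of 3 libraries), within 1 SE of nhr-68. An annotated gene on the other strand (WBGene00305173, not analysed here) covers 887 of its 1398 exon bases and pms-2 another 80, and the kit does not mark strand, so reads of these genes cannot be told apart from those of nhr-101. On the deposited RPKM values nhr-101 was not called (limma adjusted p = 0.677). The gene pms-2 runs the other way, with its start at -2839 bases from that of nhr-68, and differed by 0.06 (SE 0.0662) on the log2 scale. The last neighbour called was F52E4.5, which starts 2203 bases before pccb-1 on the other strand (-0.52, SE 0.117, edgeR adjusted p = 0.0359). It was not called without T25B9.1 replicate 1, 2 or 3 (adjusted p = 0.139, 0.0829 and 0.0881) or without L4440 replicate 2 or 3 (0.107 and 0.169), and pccb-1 itself was at -0.04. The neighbours of ech-6, hach-1, hphd-1, alh-8, nhr-10, pcca-1 and mmcm-1 were not called by edgeR.

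**Figure D5:**
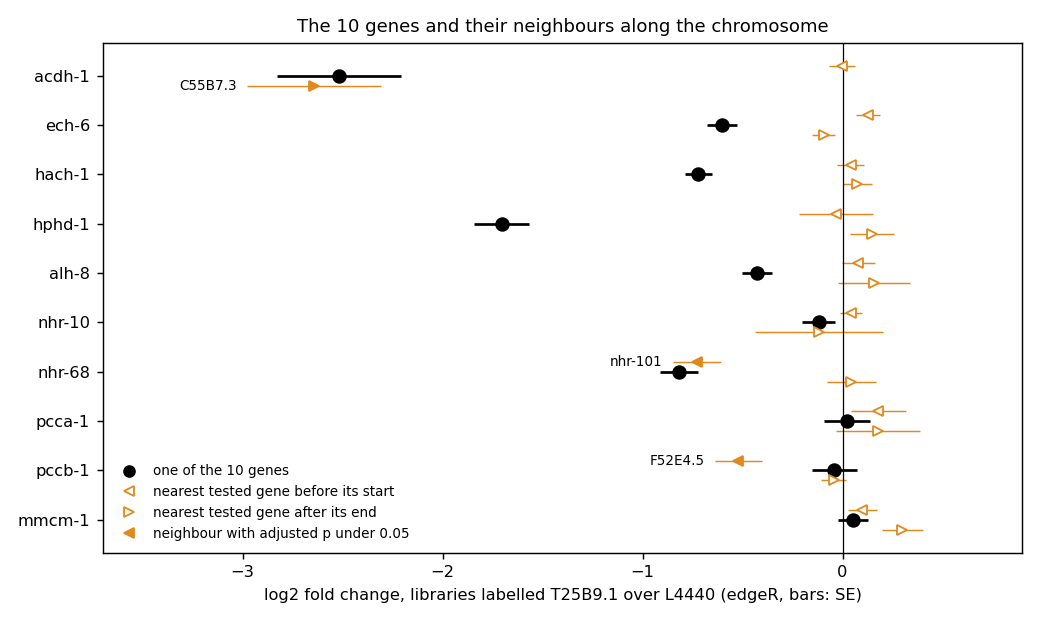
Log2 fold change, libraries labelled T25B9.1 over those labelled L4440, of each of the 10 genes (black) and of the nearest tested protein-coding gene before its start and after its end (orange triangles, filled where the edgeR adjusted p is under 0.05), with bars of 1 SE. Filled triangles lie beside acdh-1 (C55B7.3), nhr-68 (nhr-101) and pccb-1 (F52E4.5).

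Markers of 7 cell types were listed, also with earlier results of these data known. None of the listed genes was at 0 in every library, but some were near the floor. Of the 7 sperm markers 3 were below the filter. The sperm markers summed to 6.73 to 7.62 CPM under the T25B9.1 label and 4.38 to 8.67 CPM under the L4440 label. The shunt genes are known from the worm intestine. Of 8 intestinal markers, 3 were called higher by edgeR in the libraries labelled T25B9.1 (ifb-2, pept-1 and cpr-1, log2 fold changes 0.74, 0.91 and 0.57) and none lower (2 lower at an unadjusted p of 0.05, 1 by DESeq2), beside 1.13% higher and 2.29% lower among all tested genes. The call of cpr-1 was lost without T25B9.1 replicate 2 or 3 (edgeR adjusted p = 0.0902 and 0.0933) and without L4440 replicate 1, 2 or 3 (0.0742, 0.0594 and 0.104). The 2 markers lower at an unadjusted p were ges-1, an intestinal esterase gene, and act-5, an actin gene of the microvilli. In both the labels did not overlap. For ges-1 the log2 fold change was -0.28 (SE 0.0704, edgeR adjusted p = 0.0639, 0.0428 by DESeq2 and 0.0255 where low counts were kept). For act-5 it was -0.29 (SE 0.0858, edgeR adjusted p = 0.127). The edgeR adjusted p of act-5 was 0.00876 where low counts were kept, 0.0264 without L4440 replicate 1 and 0.0207 with a block of consecutive title numbers. The summed level of all 8 intestinal markers was 1261 to 1616 CPM under the T25B9.1 label and 1190 to 1278 CPM under the L4440 label, with overlap. Of 5 tested hypodermal markers edgeR called none. At an unadjusted p of 0.05, 2 were lower, beside 7.29% of all tested genes, and DESeq2 called 1 lower, beside 2.97%. Their log2 fold changes, 4 negative and 1 positive, ran from -0.57 to 0.79. The 6 listed hypodermal markers, 1 of them below the filter, summed to 297 to 338 CPM in the libraries labelled T25B9.1. In those labelled L4440 the sum was 346 to 377 CPM, without overlap. Of 5 tested pharyngeal markers edgeR called none. At an unadjusted p of 0.05, 3 were higher, beside 5.79% of all tested genes, and DESeq2 called 1 higher, beside 1.39%. Their log2 fold changes, 4 positive and 1 negative, ran from -0.05 to 0.90. The 6 listed pharyngeal markers, again 1 below the filter, summed to 55.4 to 66.5 CPM under the T25B9.1 label. Under the L4440 label the sum was 40.6 to 54.9 CPM, also without overlap. Sums for germline and oocytes, sperm, body-wall muscle and neurons overlapped between the labels, and of their tested markers none was called by edgeR or DESeq2 and 0 passed an unadjusted p of 0.05. The part of these shifts in the differences of the shunt genes was not tested.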

How the data were processed

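RNA of 6 whole-animal libraries was prepared with Illumina's TruSeq RNA kit v2 per the labels' protocols, a kit that leaves strand unmarked. Deposited counts give whole reads for each gene. The submitters' processing notes name STAR 2.4.1d, featureCounts 1.4.6-p4 and bcl2fastq 1.8.4 as the authors' tools and WBcel235 as the build. The strand setting and the treatment of shared reads are not given in the sources used here. A deposited RPKM table was used only as an alternative, because its divisor was not the same for all genes of a library. With library totals taken off, this divisor still changed between libraries by 1.53 to 2.21 times for the genes described. Groups follow the perturbation label, although the source name gives RNAi of T25B9.1 for all 6. Replicates were numbered in accession order.

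Counts were tested with edgeR 4.0.16 in R 4.3.3 (quasi-likelihood F-test, robust, TMM factors, filterByExpr with a minimum count of 10, Benjamini-Hochberg adjustment over 13494 genes, threshold 0.05). The script was also tested on simulated data. Each SE was taken from the fold change (log2) and the F statistic, as their ratio after the square root of F. CPM use TMM-scaled totals. Exon lengths and positions come from Ensembl release 115 of the same build. With 3 libraries a side, exact permutation has a smallest two-sided p of 0.1 and was not used. The members and lists were chosen with earlier results of these data known. Named genes were the 10 members, the target, in each pathway list the genes called or else the 2 of smallest p, the 3 nearest profiles of acdh-1, hphd-1 and nhr-68 (log2 CPM with a prior count of 2), and, chosen after the data were seen, acdh-2, called neighbours, 3 genes beside or overlapping a gene described (uri-1, pms-2 and F13D12.8) and 5 intestinal markers. Other genes are named by function only. Of 19 genes listed for pathways that can feed propionyl-CoA, 16 matched a symbol. Alternatives were RLE and upper-quartile factors, other filters, DESeq2 1.42.0, limma-voom (limma 3.58.1), a block of consecutive title numbers, each library left out, and, added after seeing the data, limma on log2(RPKM + 1). No sequences of these genes were used here.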

Additional observations from a re-analysis of the deposited data

How the results depend on the processing

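Under the 13 alternatives on the counts, the 5 shunt genes and nhr-68 kept their negative sign, and 5 or 6 of the 10 genes were called lower. The exceptions were acdh-1 and alh-8, whose lost calls are given beside their values. Leaving out single libraries gave 175 to 363 genes lower and 88 to 154 higher over all genes (main counts 309 and 152), with 175 lower without L4440 replicate 3, and with 88 higher without L4440 replicate 2 and 97 without either T25B9.1 replicate 1 or L4440 replicate 3. It gave log2 fold changes of -0.0097 to 0.0824 for mmcm-1, -0.106 to 0.101 for pcca-1, -0.151 to 0.0507 for pccb-1, -0.00209 to 0.0852 for pms-2 and -0.0567 to 0.0162 for uri-1, none of them called. With no filter on low counts, 256 genes were higher. On the deposited RPKM values 38 genes were lower and 20 higher, 2 of the 10 genes (acdh-1 and hphd-1) and 1 pathway list gene (acdh-2) were called lower, and mmcm-1 had -0.0528. The 5 pathway lists had 8, 16, 8, 19 and 11 genes tested. By the edgeR test reported, 3 of these were lower, beside 309 of all 13494 genes tested. With no filter on low counts 5 list genes were lower, beside 463 of 22684 genes. DESeq2 gave 6, beside 401 of 13494, and the replicate block gave 5, beside 389 of 13494. The calls over all genes thus rose under the same settings. The numbers in the titles of the libraries are consecutive between labels. Deviations from the group means of libraries so paired correlated at -0.0514, 0.124 and 0.222 over genes. For the other pairs of libraries between labels the correlations ran from -0.213 to 0.0613. What libraries with consecutive numbers share is not given by the labels and was not tested. With that replicate block, 389 genes were lower and 208 higher, and the 10 genes gave 6 lower and 0 higher. Under it acdh-2 (edgeR adjusted p = 0.0152), cth-2 (0.00538) and the intestinal marker act-5 (0.0207) also passed, all lower. Depth limits acdh-2 and C55B7.3, each with libraries at 11 counts or fewer. Intervals on single counts were not used. The cause of these changes was not tested.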
